A study of Homo sapiens with 24 samples.

Results

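The uninduced NLRP4 line was set against the uninduced empty-vector line, gene by gene. Both lines were made from THP-1, an established human line of monocytic leukaemia, and the arrays were taken by their source label: 4 arrays of the uninduced NLRP4 line and 4 of the uninduced vector line, 8 of the 24 arrays in the series. All 18417 genes with a single symbol on the array entered the comparison. The vector line carried the empty pSLIK_Neo lentivirus, and the NLRP4 line carried the same virus with a 3X FLAG-tagged NLRP4 coding sequence behind a tetracycline-inducible (TRE) promoter. Both had been selected with G418, and infection was kept low so that most infected cells should hold a single integration. Whether a line is a mixed pool or a single clone is not given in the labels. Neither group received doxycycline (DOX). The same lines with DOX at 1 µg/ml for 6 h (4 arrays each) were used as a second, separate set of wells, and another line with 3X FLAG-tagged NOD1 was used for side-by-side values. Every well was seeded with 50000 cells. Wells followed a plate order that was set in advance and not randomized, and the vector arrays are numbered 1 to 4 and the NLRP4 arrays 29 to 32, so the line and its place on the plate cannot be told apart. The labels do not say that the wells came from separate cultures. A limma p-value here is set against the spread between wells within groups, taken over all 6 groups of 4 wells in the series. That spread may be technical.

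NLRP4 belongs to the NOD-like receptors, cytosolic proteins with leucine-rich repeats that sense microbial products or scaffold innate immune signalling. The NLRP branch carries a pyrin domain, and NLRP4 is known as a brake on type I interferon signalling through TBK1 and as a partner of the autophagy protein BECN1. Its own transcript is best known from oocytes and early embryos, and blood monocytes are not a usual source of it. In a TRE system DOX lets the transactivator bind the promoter. A comparison without DOX therefore reads the 2 lines before induction.

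Values are log2 signals after quantile normalization between arrays, and a difference is the NLRP4 line minus the vector line on that scale. A gene was called at a limma adjusted p under 0.05 (Benjamini-Hochberg over all 18417 genes). The uninduced lines were close to each other. Pairs of vector arrays correlated at 0.982 to 0.992 across genes, pairs of NLRP4-line arrays at 0.987 to 0.993, and pairs drawn from different lines at 0.983 to 0.993. The median gene differed by −0.00, the SD of the difference over genes was 0.134, and its median standard error was 0.111. Before normalization the array medians were 8.82, 8.06, 8.58 and 8.63 in the vector line and 8.32, 8.53, 8.51 and 8.51 in the NLRP4 line. Of 16 markers of THP-1 and monocytic cells, 14 were measured and 9 of these lay above the array median of 8.77 on all 8 arrays, with LYZ, the lysozyme gene, at 13.43 in the vector line and 13.59 in the NLRP4 line. CD14, ITGAM, MPO and MEIS1 lay below that median on all 8 arrays. None of the 14 was called between the lines.

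NLRP4 itself and FLT3, a receptor tyrosine kinase of early blood progenitors, were higher in the NLRP4 line, and IL12RB2, the signal-transducing chain of the interleukin-12 receptor, was lower. The call therefore took 3 of 18417 genes (0.0163%), 2 higher (0.0109%) and 1 lower (0.00543%). At an unadjusted p under 0.05 there were 914 genes (4.96%), 442 higher and 472 lower. The 4 arrays of one line lay wholly above the 4 of the other for 527 genes (2.86%), 259 higher (1.41%) and 268 lower (1.46%). With random line labels the expected share would be 0.05 for the unadjusted p. For complete separation it would be 0.0286, the smallest exact permutation p for 4 arrays against 4. Both shares found lie near these. A difference of at least 0.5 was seen for 98 genes (0.532%) and at least 2-fold for 5 genes (0.0271%). These calls sat close to the threshold. With the values as deposited, or with the spread taken from the 8 uninduced arrays alone, 0 genes were called. Leaving out vector replicate 2, 3 or 4, or NLRP4-line replicate 3 or 4, also left 0 calls, leaving out NLRP4-line replicate 1 or 2 left NLRP4 alone, and leaving out vector replicate 1 left NLRP4 and FLT3. A fit over all 33297 probe sets called 0 of them, with 1542 at an unadjusted p under 0.05. Of the 13837 probe sets that had no single symbol, 0 were called and 627 had an unadjusted p under 0.05.

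**Figure D1:**
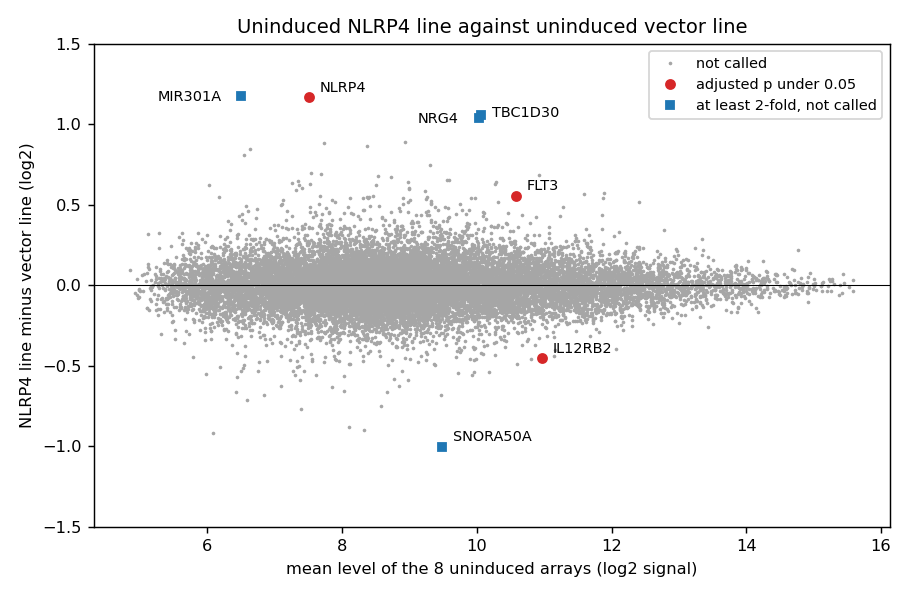
Difference between the uninduced lines (log2, NLRP4 line minus vector line, vertical) against the mean level of the 8 uninduced arrays (log2 signal, horizontal) for 18417 genes. The 3 called genes are red (NLRP4 at 1.17, FLT3 at 0.56, IL12RB2 at −0.45), and the 4 blue squares are genes that differed at least 2-fold and were not called.

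NLRP4, the gene the line was made with, was examined first, since it checks the labels. Its log2 signal in the uninduced vector wells was 7.28, 6.49, 7.04 and 6.87. In the uninduced NLRP4 wells it was 7.81, 7.67, 8.61 and 8.27. All 4 NLRP4-line wells lay above all 4 vector wells, with the closest pair at 7.67 and 7.28. The difference was 1.17 (SE 0.188, limma adjusted p = 0.0405), and an exact permutation test over the 8 wells, two-sided, gave p = 0.0286, the smallest value the design allows. The vector wells sat near the low end of the signal, below the 25th percentile of 7.79, so the fold is given as at least 2.25. With DOX the same line read 12.22, 11.99, 11.90 and 11.60 against 6.99, 6.99, 7.38 and 6.83 in the DOX-treated vector wells, a difference of 4.88 (SE 0.188, adjusted p = 1.72e-14). The uninduced NLRP4 wells therefore stood between the vector wells and the induced wells, with no overlap on either side. The probe set does not separate the introduced coding sequence from the cell's own transcript. NOD1, which neither of these lines received, read 8.17, 8.46, 8.17 and 8.54 in the vector wells and 8.11, 8.54, 8.20 and 8.30 in the NLRP4 wells. Those ranges overlapped, and the difference of −0.05 (SE 0.135) had an exact permutation p of 0.83.

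The genes that flank NLRP4 in the receptor cluster on chromosome 19 were read next, from the order of a RefSeq gene table. NLRP9, RFPL4A and NLRP11 on one side and NLRP13, NLRP8 and NLRP5 on the other differed by −0.27 to 0.03, and none was called. NLRP13 had the lowest p among them (−0.27, unadjusted p = 0.0151, adjusted p = 0.886). In the whole receptor family 20 of 23 listed genes were measured. NLRP4 was its only called member, and the family's median difference was −0.00, beside −0.00 over all genes. NLRP3, the inflammasome sensor of monocytes, differed by 0.03 (SE 0.0807).

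FLT3 binds FLT3 ligand and drives growth of early progenitors and of many acute myeloid leukaemias. It read 10.49, 10.27, 10.16 and 10.28 in the vector wells. The NLRP4-line wells read 10.95, 10.84, 10.87 and 10.79. The 4 NLRP4-line wells lay above the 4 vector wells with no overlap, and both groups sat well above the middle of the array. FLT3 rose by 0.56 (SE 0.0955, adjusted p = 0.0435), which is 1.47-fold. In the separate DOX wells it read 10.43, 10.23, 10.26 and 10.26 in the vector line and 10.67, 10.75, 10.97 and 10.54 in the NLRP4 line. Those wells again did not overlap, and the difference there was 0.44 (SE 0.0955, unadjusted p = 0.000129), which was not called over all genes (adjusted p = 0.170). The line difference with DOX minus that without was −0.12 (SE 0.135, adjusted p = 0.962). The uninduced NOD1 line read 10.91, 11.12, 11.22 and 10.83, a difference of 0.72 from the same vector arrays. The neighbours of FLT3 on chromosome 13, among them the homeobox gene CDX2, the VEGF receptor gene FLT1 and the proteasome assembly gene POMP, differed by 0.01 to 0.25, and none was called.

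IL12RB2 pairs with IL12RB1 to bind interleukin-12 and recruits JAK2 and STAT4. Its vector wells read 11.21, 11.29, 11.15 and 11.14. The NLRP4-line wells read 10.79, 10.86, 10.55 and 10.79. All 4 NLRP4-line wells were below all 4 vector wells. IL12RB2 fell by 0.45 on the log2 scale (SE 0.0786, adjusted p = 0.0435), a 1.37-fold difference. In the DOX wells the vector line read 11.20, 11.12, 11.21 and 11.25 and the NLRP4 line 10.90, 10.98, 10.91 and 10.80. The wells were again apart, with a difference of −0.30 (SE 0.0786, unadjusted p = 0.000876) that was not called over all genes (adjusted p = 0.414). Between the 2 sets of wells the line difference moved by 0.15 (SE 0.111, adjusted p = 0.948). In the uninduced NOD1 line the gene read 11.25, 11.60, 11.38 and 11.41, which is 0.21 above the same vector arrays. IL23R, which lies beside it on chromosome 1 and encodes a related receptor chain, differed by −0.02 (SE 0.117). The other neighbours ranged from −0.49 for SLC35D1, a nucleotide sugar transporter gene, to 0.11 for DIRAS3, a small GTPase gene. None of these was called.

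**Figure D2:**
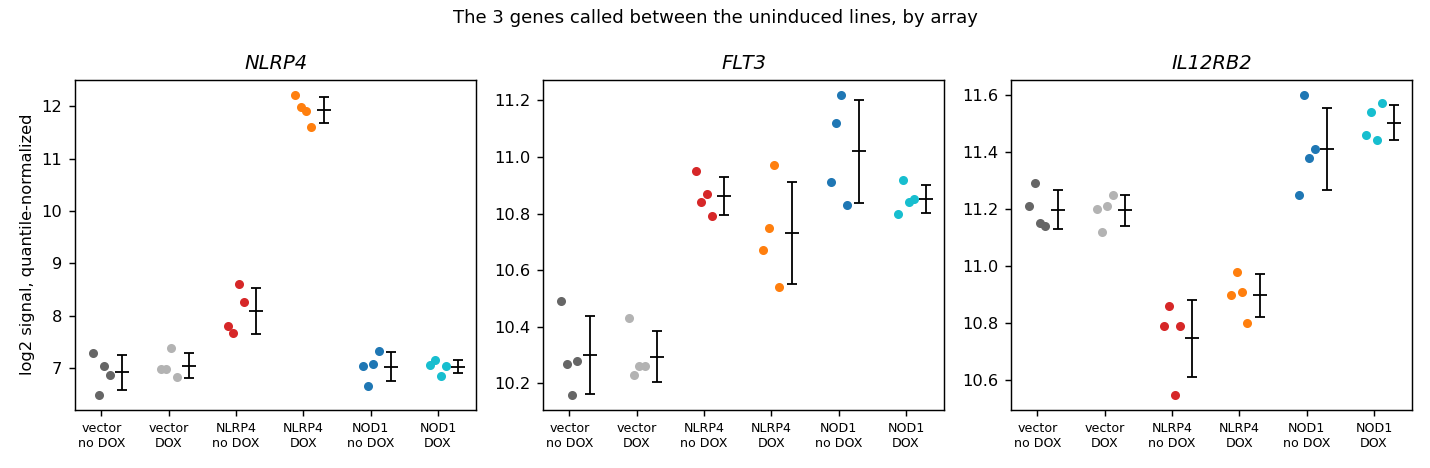
Log2 signal of NLRP4, FLT3 and IL12RB2 on each of the 24 arrays, by line and DOX treatment. Points are arrays, and the black bar is the mean with its SD (n = 4). The uninduced NLRP4 wells stand apart from the uninduced vector wells in each panel, at 7.67 to 8.61 against 6.49 to 7.28 for NLRP4.

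The start-site windows of FLT3 and IL12RB2 are shown because these called genes are not the gene the line was made with. They are RefSeq sequences of GRCh38.p14, 250 bases before to 50 bases after the start, on the gene's strand. FLT3 has the window chr13:28100527-28100826 on the minus strand. IL12RB2 has an upstream start, chr1:67307114-67307413, and a downstream start, chr1:67307623-67307922, both on the plus strand. Capitals mark exact matches on either strand to the motifs named after the sequences.
FLT3: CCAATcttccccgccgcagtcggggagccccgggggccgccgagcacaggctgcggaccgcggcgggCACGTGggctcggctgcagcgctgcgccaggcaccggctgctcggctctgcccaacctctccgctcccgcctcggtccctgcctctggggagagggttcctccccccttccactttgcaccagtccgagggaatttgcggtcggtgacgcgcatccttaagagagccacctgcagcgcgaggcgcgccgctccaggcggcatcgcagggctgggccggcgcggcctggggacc
IL12RB2 upstream start: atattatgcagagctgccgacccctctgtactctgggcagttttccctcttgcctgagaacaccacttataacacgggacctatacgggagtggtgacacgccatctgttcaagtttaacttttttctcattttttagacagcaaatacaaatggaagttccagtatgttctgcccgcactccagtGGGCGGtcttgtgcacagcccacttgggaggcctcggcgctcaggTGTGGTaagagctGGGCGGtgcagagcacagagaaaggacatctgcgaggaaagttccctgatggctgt
IL12RB2 downstream start: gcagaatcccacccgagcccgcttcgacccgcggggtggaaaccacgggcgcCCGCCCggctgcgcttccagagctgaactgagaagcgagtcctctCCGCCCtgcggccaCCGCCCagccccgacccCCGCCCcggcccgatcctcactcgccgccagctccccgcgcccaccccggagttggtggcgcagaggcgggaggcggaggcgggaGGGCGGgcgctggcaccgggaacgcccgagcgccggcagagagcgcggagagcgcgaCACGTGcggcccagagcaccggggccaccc
The FLT3 window is 74% GC with 34 CpG dinucleotides, and the IL12RB2 windows hold 51.7% GC with 10 CpG and 77.3% GC with 41 CpG. Over 35116 such promoter windows the medians were 58.7% GC and 14 CpG. The FLT3 window holds 1 E-box (CACGTG, in 7.26% of the windows) and 1 CCAAT box (CCAAT, 34.6%). The upstream IL12RB2 window holds 1 RUNX motif (TGTGGT, 13.1%) and 2 Sp1 boxes (GGGCGG, 45%), and the downstream window 5 Sp1 boxes and 1 E-box. Searched on both strands, no window of either gene held the PU.1 core GAGGAAGT (2.59%), the CEBP motif TTGCNNAA (10.5%), the GAS motif TTCNNNGAA (7.66%), the AP-1 motif TGANTCA (7.71%) or the TATA box TATAAA (11.5%). A match is a string of letters and was not tied to binding by any measurement here.

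Below these 3 genes, the next 7 by p-value were not called, and their values follow as a description. MIER2, a chromatin corepressor component, was 0.48 higher (SE 0.0992, adjusted p = 0.257) and IFT20, a ciliary transport gene, 0.57 higher (SE 0.118, adjusted p = 0.257). TSSK3, a testis kinase gene, was 0.52 higher (adjusted p = 0.345), and ANTXR1, an anthrax toxin receptor gene, was 0.58 lower on the log2 scale in the NLRP4 line (difference −0.58, adjusted p = 0.345). LST1, a leukocyte membrane protein gene of the MHC region, differed by 0.34 (adjusted p = 0.363), TSBP1 by −0.71 (adjusted p = 0.363) and GABBR2, a GABA-B receptor subunit gene, by −0.46 (adjusted p = 0.364). In the DOX wells LST1 (0.34) and GABBR2 (−0.61) had differences of the same sign and like or larger size. MIER2 (0.06), IFT20 (−0.06), TSSK3 (−0.03), ANTXR1 (−0.18) and TSBP1 (−0.01) were nearer 0 there. The 3 array probe sets for LST1 hold identical values, so they count as a single measurement.

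Another 4 genes differed at least 2-fold without being called. TBC1D30, a Rab GTPase-activating protein gene, read 9.57, 9.26, 9.76 and 9.53 in the vector wells and 10.55, 10.73, 10.89 and 10.18 in the NLRP4-line wells. The 2 groups did not overlap (difference 1.06, adjusted p = 0.420), but the DOX wells of the vector line reached 10.52. NRG4, a ligand of the receptor ERBB4, read 9.04, 9.97, 9.37 and 9.69 against 10.23, 10.26, 10.95 and 10.79 (1.04, adjusted p = 0.453). The uninduced NOD1 line stood below the vector line for both genes, at −1.59 for TBC1D30 and −0.97 for NRG4. For MIR301A (1.18) and SNORA50A (−1.003), small RNA genes, the arrays of the 2 lines overlapped.

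Because the same lines were also measured with DOX, every gene could be read in 8 further wells. The line differences in the DOX wells use no array of the uninduced differences. With DOX the vector arrays are numbered 5 to 8 and the NLRP4-line arrays 33 to 36. Line and place on the plate cannot be told apart there either. The p-values and calls of the 2 sets are not separate, because the fit takes a shared spread from all groups of wells. In the DOX wells 7 genes were called (0.038%), 2 higher and 5 lower. An unadjusted p under 0.05 was found there for 1126 genes (6.11%), 534 higher (2.9%) and 592 lower (3.21%). The arrays of the lines did not overlap for 971 genes (5.27%). The 7 called genes were NLRP4, NCAM2, CD36, SCARB2, GABBR2, TNFAIP3 and ANXA2P1, an annexin pseudogene. Leaving out any 1 of the 4 vector DOX arrays, or NLRP4-line DOX replicate 1 or 4, left 2 calls, and leaving out NLRP4-line DOX replicate 2 left 3. NLRP4 was the single gene called in both sets of wells. Among all genes, 8998 of 18417 (48.9%) had the same sign of difference in both sets. Among the 914 genes with an unadjusted p under 0.05 without DOX the share was 501 (54.8%), and among the 10 with the lowest p it was 8. Genes whose 4 arrays per line did not overlap without DOX had the same sign in 300 of 527 cases (56.9%), and 47 of them did not overlap in the same direction in the DOX wells, while 11 did so in the opposite direction. The test of the difference between the 2 line differences called NLRP4 alone (3.71, SE 0.266, adjusted p = 1.43e-08), with 906 genes (4.92%) at an unadjusted p under 0.05.

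**Figure D3:**
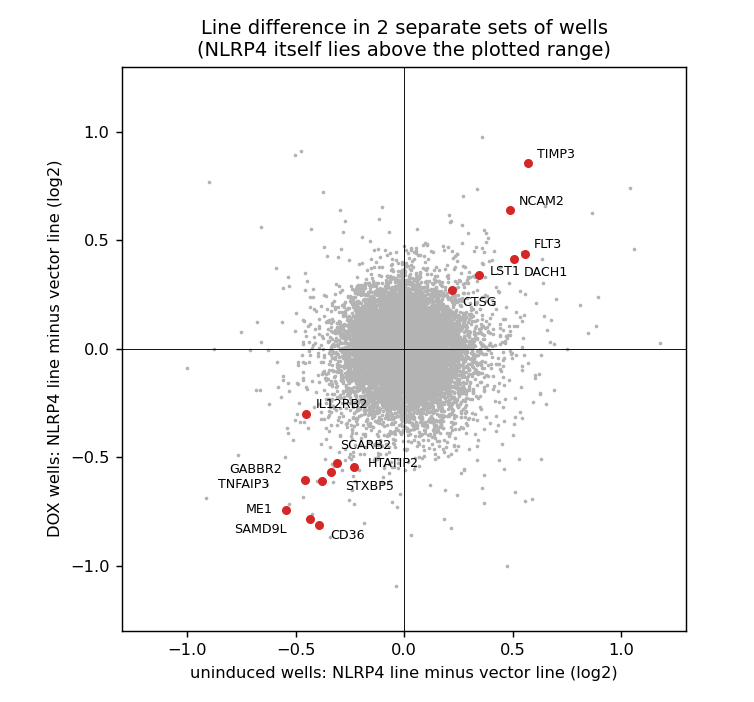
Difference between the NLRP4 line and the vector line (log2) in uninduced wells (horizontal) and in DOX wells (vertical) for each gene. Red points are 15 of the 16 genes called when the differences were averaged, and NLRP4, at 1.17 and 4.88, lies above the plotted range.

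The mean of the 2 line differences, added after the values had been seen, uses 8 arrays of each line. It called 16 genes (0.0869%), 7 higher (0.038%) and 9 lower (0.0489%), of which 3 were also called without DOX and 6 in the DOX wells. The 4 uninduced arrays per line did not overlap for 12 of the 16, beside 2.86% of all genes. Those arrays entered the mean that chose the 16, so this count is not a separate check. For every gene the averaged difference includes the DOX wells, where NLRP4 was induced, so it is not a difference of uninduced lines alone. For NLRP4 it includes the induction itself. The genes other than NLRP4 that were higher were NCAM2 (0.56), a neural adhesion molecule gene, FLT3 (0.50), LST1 (0.34), CTSG (0.24), the neutrophil granule protease cathepsin G, DACH1 (0.46), a transcriptional corepressor gene, and TIMP3 (0.71), an inhibitor of metalloproteinases. Lower were CD36 (−0.60), a scavenger receptor gene, SCARB2 (−0.42), a lysosomal membrane receptor gene, GABBR2 (−0.53), IL12RB2 (−0.38), TNFAIP3 (−0.49), which encodes the NF-kB inhibitor A20, ME1 (−0.64), the cytosolic malic enzyme, STXBP5 (−0.45), which encodes tomosyn, SAMD9L (−0.61), an interferon-inducible gene, and HTATIP2 (−0.39), an oxidoreductase gene. Over 26 alternatives the averaged calls differed in how often they held: DACH1 was called in 9, HTATIP2 in 10, SAMD9L in 11, STXBP5 and TIMP3 in 12 each and ME1 in 18, while the other 10 were called in 24 to 26. Under values as deposited 7 genes were called, 6 of them among these 16. With arrays centred on their medians 4 were called, all among the 16. FLT3, GABBR2, IL12RB2, NCAM2, SCARB2 and TNFAIP3 each lost their call under either values as deposited or median centring. Their highest averaged adjusted p (limma) was 0.064, 0.0784, 0.377, 0.327, 0.123 and 0.266, in that order.

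CD36 had the lowest averaged p after NLRP4. The uninduced vector wells read 9.83, 9.88, 10.00 and 10.03 and the uninduced NLRP4 wells 9.35, 9.64, 9.70 and 9.48. With DOX the vector wells read 10.05, 9.76, 10.08 and 9.90 and the NLRP4 wells 9.18, 9.07, 8.97 and 9.32. No NLRP4-line well reached any vector well in either set. The difference was −0.39 without DOX (SE 0.0964, adjusted p = 0.446) and −0.81 with it (SE 0.0964, adjusted p = 0.000141). The change between them was −0.42 (SE 0.136, limma unadjusted p = 0.00516) and was not called (adjusted p = 0.930). The averaged difference was −0.60 (SE 0.0682, adjusted p = 6.05e-05). The uninduced NOD1 line differed by −0.68 from the same vector arrays.

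SCARB2 read 11.70, 11.84, 11.89 and 11.90 in the uninduced vector wells and 11.45, 11.61, 11.47 and 11.56 in the uninduced NLRP4 wells, again without overlap. Its difference was −0.31 without DOX and −0.53 with it, averaging −0.42 (SE 0.0611, adjusted p = 0.00149). GABBR2 read 9.07, 9.24, 9.33 and 9.29 against 8.81, 8.94, 8.62 and 8.73. It averaged −0.53 (SE 0.0734, adjusted p = 0.000935), while the uninduced NOD1 line stood at 0.03 from the vector line. TNFAIP3 read 8.78, 9.02, 9.01 and 9.14 against 8.65, 8.75, 8.47 and 8.57, with the highest NLRP4-line well just under the lowest vector well. Its averaged difference was −0.49 (SE 0.0805, adjusted p = 0.00508), and the uninduced NOD1 line stood 0.58 above the vector line. ME1, SAMD9L and HTATIP2 had overlapping uninduced wells, with differences of −0.55, −0.44 and −0.23.

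On the higher side NCAM2 read 10.89, 11.12, 11.15 and 10.97 in the uninduced vector wells and 11.46, 11.54, 11.46 and 11.61 in the uninduced NLRP4 wells. The wells did not overlap, and the averaged difference was 0.56 (SE 0.0817, adjusted p = 0.00149). CTSG, among the brightest genes of the array, read 14.72, 14.68, 14.63 and 14.59 against 14.83, 14.90, 14.89 and 14.88. Its averaged difference was small, 0.24 (SE 0.0392, adjusted p = 0.00461), but no well of one line reached the other. LST1 read 12.65, 12.63, 12.58 and 12.59 against 12.98, 13.12, 12.78 and 12.93, with an averaged difference of 0.34 (SE 0.0539, adjusted p = 0.00412). With values as deposited the averaged adjusted p was 0.999 for CTSG and 0.170 for LST1, and with median centring 0.999 for both. TIMP3 had overlapping uninduced wells, at 11.29 to 11.90 in the vector line and 11.87 to 12.62 in the NLRP4 line. The uninduced NOD1 line differed from the same vector arrays by 1.21 for NCAM2, 0.37 for CTSG, 0.58 for LST1 and 1.37 for TIMP3.

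**Figure D4:**
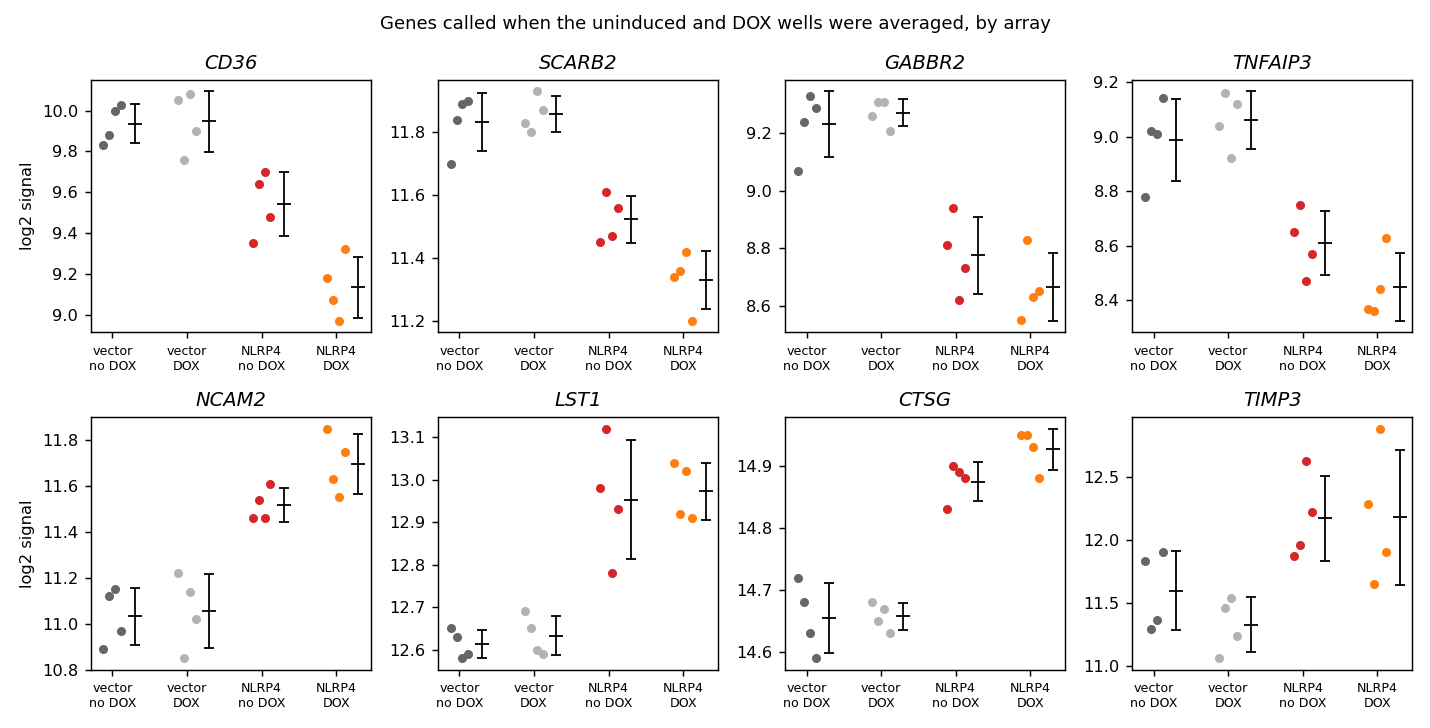
Log2 signal on each array of the vector and NLRP4 lines, without and with DOX, for 8 of the 16 genes of the averaged comparison. Points are arrays and the black bar is the mean with its SD (n = 4). CD36 runs from 9.83 to 10.03 in the uninduced vector wells and from 9.35 to 9.70 in the uninduced NLRP4 wells.

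When the uninduced and DOX wells of a line were read as 1 set, all 8 arrays of the NLRP4 line lay on one side of all 8 vector arrays for 29 genes (0.157% of 18417), 12 higher (0.0652%) and 17 lower (0.0923%). These were chosen after their values were seen, and of them NLRP4, FLT3 and IL12RB2 were called without DOX. Among the higher were CTSG, MS4A3 (0.44 without DOX and 0.10 with it), CST7, the leukocystatin gene (0.32 and 0.33), and CAPG, an actin-capping protein gene (0.25 and 0.25). Among the lower were FTL, the ferritin light chain gene (−0.27 and −0.19), the proteasome genes PSMB9 (−0.39 and −0.25) and PSMB1 (−0.11 and −0.16), and the mitotic genes CCNB1 (−0.19 and −0.23) and NEK2 (−0.15 and −0.21). TANK, which encodes an adaptor of TBK1, stood at −0.18 without DOX and −0.24 with it. Of these genes, none beyond the 3 named first was called in the uninduced wells.

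Over all 24 arrays, the genes whose profile was most like that of FLT3 were CTSG (Pearson r = 0.864), LST1 (0.855) and TIMP3 (0.838). For IL12RB2 they were PSME3 (0.894), TRMT112 (0.894) and PSMB9 (0.893), a proteasome activator, a methyltransferase partner and an immunoproteasome subunit. PSMB9 differed by −0.39 between the uninduced lines and PSME3 by −0.17, and neither was called. For NLRP4 they were SPMIP5 (0.766), LCE1E (0.758) and BPIFA1 (0.756), with uninduced differences of 0.05, 0.06 and 0.07. These correlations are descriptions over arrays that share lines, normalization and place in the order.

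Gene lists for pathways of these cells were then read against the background of all genes. Of 31 lists with 1052 entries, 950 entries were measured, and NLRP4 was the only member called in the uninduced comparison. Counts below are at an unadjusted p under 0.05, which took 2.4% of all genes as higher and 2.56% as lower in the uninduced wells, and 2.9% and 3.21% in the DOX wells, so they describe the lists and call nothing.

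Interferon-stimulated genes had 0 of 42 measured members higher and 6 lower, with a median difference of −0.10 and 32 of 42 below 0. IFI44 read 7.25, 8.31, 8.50 and 7.06 in the vector wells and 7.17, 6.98, 6.94 and 6.96 in the NLRP4 wells. The NLRP4 wells lay together, and 2 of the 4 vector wells stood over a log2 unit above them (difference −0.77, adjusted p = 0.853). BST2, which encodes the virus-tethering protein tetherin, read 10.53, 10.66, 10.29 and 10.39 against 10.15, 10.14, 10.05 and 10.12 without overlap (−0.35, adjusted p = 0.853). The mean level of the list ran from 8.60 to 8.96 over the vector wells and from 8.64 to 8.71 over the NLRP4 wells, so the groups overlapped. In the DOX wells 1 member was higher and 7 were lower, with a median of −0.11.

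Genes of the G2/M phase had 1 of 45 higher and 6 lower, with a median of −0.08 and 36 of 45 below 0. Of the 45, 36 lay below the median of all genes, and 26 did so with values as deposited or centred. CDK1, the mitotic kinase, was the member that was higher (0.31, adjusted p = 0.567), and in the DOX wells it stood at −0.30. TPX2, a spindle assembly factor, differed by −0.18 (adjusted p = 0.859). With DOX 0 members were higher and 14 lower, with a median of −0.15. Genes of DNA replication and S phase had 2 of 45 higher and 0 lower, with a median of 0.04. In the DOX wells 1 was higher and 2 were lower, with a median of 0.01.

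NRF2 target and metallothionein genes had a median of −0.10, with 1 of 28 higher and 2 lower, and −0.07 with 0 higher and 4 lower in the DOX wells. AKR1C1, an aldo-keto reductase gene whose signal may mix with that of its near-identical relatives, was 0.56 higher (adjusted p = 0.660) and ME1 was at −0.55. NF-kB feedback genes had 0 of 29 higher and 3 lower, with NFKBIZ, an inducible nuclear IkB protein gene, at −0.35 and TNFAIP3 at −0.38. Their median was −0.05 with 20 of 29 below 0, and in the DOX wells it was 0.02 with 11 below 0, 1 higher and 2 lower. Granule and calgranulin genes had 3 of 25 higher and 0 lower, with a median of 0.04 and 11 of 25 below 0, and 5 higher and 1 lower in the DOX wells. RNASE2, an eosinophil-type ribonuclease gene, stood at 0.29 and CTSG at 0.22. The calgranulins, calcium-binding proteins named here after their values were seen, lay the other way: S100A12 differed by −0.48, S100A8 by −0.34 and S100A9 by −0.25, and with DOX by −0.34, −0.87 and −0.21. None of these was called. Genes of the ATF4 and amino acid response had 4 of 41 higher and 0 lower, with ATF4 at 0.33 and the amino acid carrier SLC38A2 at 0.23, and a median of 0.02. With DOX these counts were 4 and 0, with a median of 0.08. Glycolysis and hypoxia genes had 2 of 31 higher and 0 lower with a median of 0.06, and 8 higher and 0 lower in the DOX wells with a median of 0.14. The DOX medians depended on scaling. Over all genes the DOX median was 0.006, and 0.115 with values as deposited. As deposited, the DOX medians were 0.18 for the glycolysis list, −0.21 for the G2/M list and −0.055 for the NRF2 list.

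Relative to the median of all genes, the interferon list stood at −0.10 and the NRF2 list at −0.10, and at −0.12 and −0.09 in the values as deposited. The G2/M list went from −0.07 to −0.02, the signalling partners below from −0.01 to 0.03, autophagy from −0.03 to 0.005, respiratory chain genes from −0.0002 to 0.05 and ribosomal protein genes from 0.01 to 0.05, where 6 of 43 in place of 20 lay below the median of all genes. Some other lists also changed side. ER and heat shock chaperones went from −0.03 to 0.01, and erythroid and megakaryocyte markers from 0.02 to −0.0025. NLR family receptors went from 0.001 to −0.0225, monocyte and macrophage markers from 0.0006 to −0.009 and B cell markers from 7.8e-05 to −0.03. No direction is drawn for these lists or for the 5 before them. The lists for NLRP4 and NOD1 signalling partners (0 of 23 higher, 1 lower), inflammasome and pyroptosis genes (0 of 22 either way) and autophagy (1 of 38 higher, 1 lower) had medians of −0.01, −0.01 and −0.03. Cytokines and chemokines had 0 of 37 higher and 1 lower, and monocyte and macrophage surface markers 2 of 40 higher and 2 lower. Ribosomal protein genes had 1 of 43 higher and 0 lower with a median of 0.01, and respiratory chain genes 2 of 48 higher and 0 lower with a median of −0.00.

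Marker lists of other cell types had no member at an unadjusted p under 0.05 in either direction. These were 20 T and NK cell genes, 10 B cell genes, 12 erythroid and megakaryocyte genes and 22 epithelial, stromal and kidney line genes. The mean levels of these lists ran from 7.68 to 8.13 over the vector wells and from 7.70 to 8.08 over the NLRP4 wells. Those means lay below the array median of 8.77, but some members did not. By their mean over all 24 arrays, 3 T and NK cell genes and 2 B cell genes lay above the median. So did 1 erythroid and megakaryocyte gene and 5 epithelial, stromal and kidney line genes. In a bulk RNA sample a lower level cannot be told apart from fewer cells expressing a gene.

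**Figure D5:**
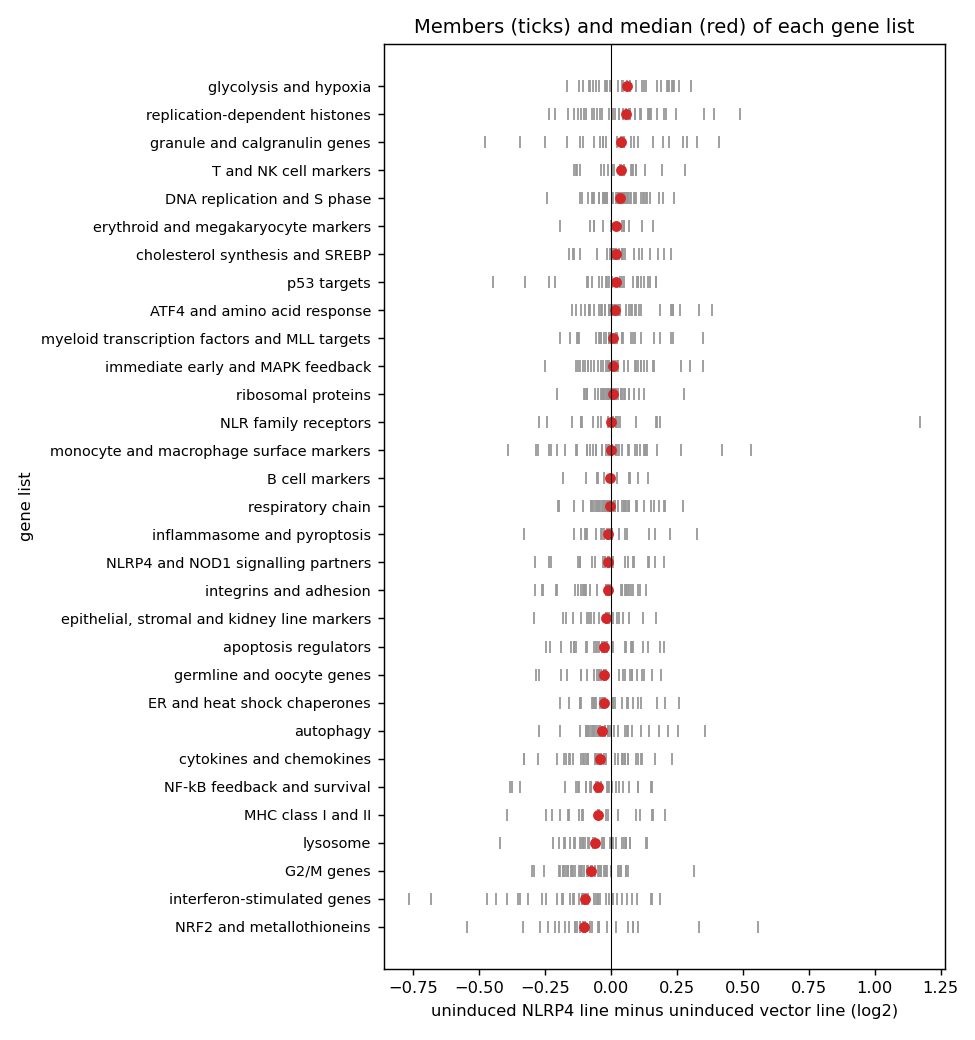
Difference between the uninduced lines (log2, horizontal) for the measured members of each of 31 gene lists. Grey ticks are genes and red points are list medians, and every median lies between −0.10 and 0.06. NLRP4, at 1.17, is the tick at the right.

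Measured in the same fit, the uninduced NOD1 line against the same vector arrays had 4592 genes called (24.9%), and the difference between these counts was not tested.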

How the data were processed

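Total RNA was read on Affymetrix Human Gene ST arrays, and each probe set has a deposited log2 signal per array. The submitters' processing notes name RMA and the oligo package. Tool versions, the order of steps and the genome build were not given in the sources used here. Of 33297 probe sets 19460 had a single symbol, 1754 several and 12083 none here. Names came from the platform annotation, with 19429 updated through Entrez IDs and RefSeq (GRCh38.p14). The brightest probe set stood for a gene, 769 of 18417 genes having more than 1. The deposited array medians differed, so the gene table was quantile-normalized between arrays. The 6 groups were fitted together in limma 3.58.1 (R 4.3.3) on all 24 arrays, with 18 residual degrees of freedom, and calls used a Benjamini-Hochberg adjusted p under 0.05. Arrays give no read depth, and 4 arrays per group limit the precision. A fold is written as at least its value where the lower group lay below the 25th percentile. The fit was tested on simulated data with noise drawn separately for each gene. It called 407 of 670 planted differences of 0.5 log2 (60.7%), 649 of 670 of 1 (96.9%) and 658 of 660 of 2 (99.7%). Of all calls 4.35% were false. Differences near 0.5 could thus be missed.

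Genes named are NLRP4 and NOD1, called genes, the 10 with the lowest p, 2 members of a list by lowest p, neighbours in RefSeq and the 3 most like profiles. Genes of the averaged difference, of the DOX wells, those at least 2-fold apart and those apart on all arrays were chosen after their values were seen. The comparison, its lists and this rule were chosen with earlier results of these data known. Alternatives were the values as deposited, median centring, quantile normalization of all probe sets, fewer arrays in the fit, array weights and a trended robust prior. Others were the array median as a covariate, a filter on dim genes, the mean of probe sets and single arrays left out. Each of the 16 arrays of the vector and NLRP4 lines was left out in turn, and no NOD1 array was. The averaged difference and leaving out the dimmest array of each line were added after seeing the data.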

Additional observations from a re-analysis of the deposited data

Results flagged for a closer look

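The deposited median of 1 uninduced NLRP4-line array, replicate 1, was 8.32, while the other 3 lay at 8.51 to 8.53. The gap took most of the group's range, past Dixon's limit for 4 values. It was the only such value among 56 groups of values examined, and chance alone marks about 1 group in 20. Apart from the array medians of each line, these groups were values of 27 genes. Nearly all of those genes were chosen for calls, low p or large differences, so the rate among them is no fair background. The values compared above were normalized between arrays after this median was taken. Without that array NLRP4 remained called and FLT3 and IL12RB2 were not.

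The line difference of NLRP4 itself was 3.71 larger with DOX than without (log2, SE 0.266, limma adjusted p = 1.43e-08). All 4 NLRP4-line wells lay above all 4 vector wells in both sets.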

How the results depend on the processing

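The sizes of the 3 called differences moved little, while their calls often ended. The count of 3 became 0 with values as deposited, 0 with only the 8 arrays compared, 0 with the 16 arrays of these lines, 0 without the dimmest array of each line, 1 with median centring and 16 for the averaged difference. Leaving out 1 uninduced array gave 0 to 2 calls: 0 without vector replicate 2, 3 or 4 or NLRP4 replicate 3 or 4, 1 without NLRP4 replicate 1 or 2, and 2 without vector replicate 1. Leaving out a DOX array, which only alters the shared spread, also gave 0 to 2.

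NLRP4 stood at 1.05 as deposited (adjusted p = 0.659), 1.17 with 8 arrays (0.529) or 16 arrays (0.0986), 1.12 without the dimmest arrays (0.180) and 1.00 to 1.31 with 1 array left out. FLT3 stood at 0.61 as deposited (0.116), 0.66 centred (0.126), 0.56 with 8 arrays (0.366) or 16 arrays (0.0986), 0.55 with the array median as a covariate (0.0565), 0.52 without the dimmest arrays (0.578) and 0.51 to 0.62 with 1 left out. IL12RB2 stood at −0.46 as deposited (0.613), −0.41 centred (0.998), −0.44 with all probe sets normalized (0.0726), −0.45 with 8 arrays (0.738) or 16 arrays (0.0986), −0.44 without the dimmest arrays (0.578) and −0.49 to −0.38 with 1 left out. Of 19 alternatives with a value, 10 called NLRP4, 6 FLT3 and 5 IL12RB2, each with the sign kept in all 19.

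The 7 calls in the DOX wells became 1 as deposited, 2 centred, 3 with all probe sets normalized, 3 with the covariate, 18 with array weights and 2 to 10 with 1 array left out. The single call for the difference between the line differences became 2 centred, with all probe sets normalized or with array weights. It stayed 1 with any array of the vector or NLRP4 line left out. The 16 averaged calls became 7 as deposited, 4 centred, 28 with weights and 10 to 18 with 1 left out. The 1 gene called in both sets became 0 as deposited, with 16 arrays or without the dimmest arrays, 2 with weights or a trended robust prior, and 0 to 1 with 1 left out. The 1 called list member became 0 as deposited, with 8 arrays, with 16 arrays or without the dimmest arrays, 2 with the trended robust prior, and 0 to 1 with 1 left out.

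Uncalled differences near 0 changed sign: NOD1 to 0.0154 with weights, 0.0514 without the dimmest arrays and −0.14 to 0.0197 with 1 left out, SPMIP5 to −0.005 as deposited and −0.0229 without the dimmest arrays, LCE1E to −0.00875 without them, and ANXA2P1 to between −0.10 and 0.0312 with 1 left out. Fitting 8 or 16 arrays leaves fewer residual degrees of freedom. The cause of the lost calls was not tested for any of the alternatives. No paired analysis was possible because the labels give the wells no replicate numbers shared between lines.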
